A study of Mus musculus with 6 samples.

Results

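Immediate early genes are the genes that a resting cell transcribes within minutes of a signal, from factors already present and without new protein synthesis. Serum response factor (SRF), CREB and their relatives, acting downstream of MAP kinases, calcium and cyclic AMP, are known to switch them on. Most of the products are transcription factors that in turn act on later genes, and the transcripts are short-lived. In lung, as in other tissues, stretch, injury, inflammatory signals and handling are known to induce them.

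Of the 56262 genes in the count table, 10 genes of this class were followed, taken by name. They were the AP-1 subunits Fos, Fosb, Jun and Junb, the zinc-finger factors Egr1 and Egr2, the orphan nuclear receptor Nr4a1, the stress-induced factor Atf3, the nuclear protein gene Ier2 and the antiproliferative gene Btg2. On the files' build, mm10, Jun lies at chr4:95049034-95052222, Fosb at chr7:19302696-19310051, Junb at chr8:84976910-84978718, Ier2 at chr8:84661331-84662854, Atf3 at chr1:191170296-191218039 and Btg2 at chr1:134075170-134079120, all on the minus strand, and Egr2 at chr10:67535475-67542188 on the plus strand. Each name matched 1 gene, and all 10 genes passed the filter on low counts. RNA from lung tissue of 3 R/R and 3 WT mice was sequenced as paired reads of 150 bases. The R/R mice were homozygous for a knock-in of K329R and K332R in RBM47, an RNA-binding protein, which replaces lysines that accept the ubiquitin-like protein ISG15. The WT mice were littermates with unaltered RBM47, and both genotypes were on a C57BL/6 background, 8 weeks of age and untreated. The knock-in was present in every cell of the body, not in lung alone. The single comparison was R/R against WT, and it asks whether basal expression differs between lungs with and without these lysines.

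The 6 libraries held 16501092 to 18141067 counts on genes, so that 1 count was worth 0.0551 to 0.0606 CPM, the unit used below, a count divided by the TMM-scaled library total. The labelled tissue was borne out by its markers in each library, with surfactant gene Sftpc at 10010 to 13790 CPM, club cell gene Scgb1a1 at 8901 to 14490 CPM and endothelial gene Pecam1 at 875 to 1029 CPM. Rbm47 itself was at a mean of 33.4 CPM in the R/R lungs and at 31.2 CPM in the WT lungs (log2 fold change 0.10, SE 0.08, edgeR adjusted p = 0.660), and gene counts cannot show the substitutions. In bulk RNA, fewer cells of a type and less RNA per cell cannot be told apart.

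The sequence before the start site of 4 of the genes is shown because these genes span the results. Nr4a1 was the gene that passed the test, Fos had the largest difference and Btg2 the most even values. Egr2 was the only gene with a CArG box, the site bound by SRF, in the windows searched. Each stretch is the 250 bases before a RefSeq start site on build GRCm38.p6, written 5′ to 3′ on the strand of the gene. Capitals mark the letters TGACG or, on the other strand, CGTCA, the core of the cyclic AMP response element that CREB family proteins bind. In Egr2 they mark the CArG box instead. The Nr4a1 stretch is chr15:101266596-101266845 on the plus strand, in an intron of a longer annotated transcript of Nr4a1. The Fos stretch is chr12:85473640-85473889 on the plus strand and overlaps no annotated gene. For Btg2 it is chr1:134079156-134079405 on the minus strand, also outside any annotated gene. For Egr2 it is chr10:67537619-67537868 on the plus strand, in an intron of longer Egr2 transcripts.
Nr4a1: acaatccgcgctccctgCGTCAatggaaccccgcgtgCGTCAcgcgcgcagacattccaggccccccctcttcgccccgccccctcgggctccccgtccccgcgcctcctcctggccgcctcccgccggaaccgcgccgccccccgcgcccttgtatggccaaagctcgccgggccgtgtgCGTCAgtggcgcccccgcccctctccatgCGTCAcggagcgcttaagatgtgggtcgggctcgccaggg
Fos: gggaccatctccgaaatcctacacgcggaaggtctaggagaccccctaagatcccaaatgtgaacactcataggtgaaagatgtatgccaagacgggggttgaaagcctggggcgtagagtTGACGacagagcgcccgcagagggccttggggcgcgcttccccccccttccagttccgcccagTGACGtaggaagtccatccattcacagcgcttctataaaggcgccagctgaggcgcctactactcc
Btg2: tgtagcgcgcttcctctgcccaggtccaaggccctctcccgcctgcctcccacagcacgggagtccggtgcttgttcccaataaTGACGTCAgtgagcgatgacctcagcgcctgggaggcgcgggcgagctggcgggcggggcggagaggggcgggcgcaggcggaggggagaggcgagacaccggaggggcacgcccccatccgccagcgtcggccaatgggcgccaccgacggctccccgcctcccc
Egr2: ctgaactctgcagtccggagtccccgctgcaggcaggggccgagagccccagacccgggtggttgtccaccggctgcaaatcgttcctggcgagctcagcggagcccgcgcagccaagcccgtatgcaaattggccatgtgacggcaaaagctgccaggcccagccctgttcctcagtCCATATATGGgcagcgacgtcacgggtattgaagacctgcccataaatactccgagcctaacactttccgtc

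The RefSeq windows searched ran from 250 bases before to 50 bases after the start, and 8 of the 10 genes had at least 1 window used here, 12 windows in all. Egr1 and Ier2 had none and were not searched, and sites outside these windows were not searched in any gene. Both strands were searched. The letters TGACG stood in a window of 7 of these 8 genes, Jun being the exception, whereas 20.8% of all 32851 windows of that length, and 23.0% of genes with a window, held them. Nr4a1 had 4 such sites, a number that 0.231% of all windows reached, and Fos, Btg2 and Egr2 had at least 2 in a window, as did 5.01% of all windows. In Btg2 the sites overlapped as the full element TGACGTCA, which 1.79% of all windows held and no other of the 8 genes did. Among the 8 genes searched, a CArG box was found only in Egr2, in 4 of its 5 windows, against 1.63% of all windows. Most of these windows overlap and hold the same box, CCATATATGG, and the remaining one holds CCTTTTTTGG, so they do not count as separate sites. The AP-1 site TGACTCA was in no window of the 8 genes and in 5.2% of all windows. An EGR site, GCGGGGGCG or GCGTGGGCG, was in the windows of Fosb and Nr4a1 and in 3.47% of all windows. The letters TATAAA were in the windows of Fos and Junb and in 13.6% of all windows. In Fos they lay at −33 to −28 from the start, and in Junb at 1 to 6, on the RefSeq start itself. The windows were rich in G and C, with a median of 62.3% against 52.7% over all windows. These are matches of letters in short windows, and no binding was measured.

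All 10 genes had a higher mean in R/R lungs, and only Nr4a1 passed the test at an adjusted p of 0.05. The fold changes ran from 1.14 in Jun to 2.27 in Fos, and their median on the log2 scale was 0.50 against 0.0045 over all 17120 genes tested. Of all tested genes, 51.2% had a fold change above 0, 0.648% were called higher in R/R lungs and 1.75% were called in either direction. At an unadjusted p under 0.05 all 10 genes were higher, against 6.54% of all tested genes. In 8 of the 10 every R/R lung lay above every WT lung, against 9.17% of all tested genes, and 18.7% of all tested genes had no overlap between genotypes in either direction. The 10 genes were chosen with earlier results of these data known, so these shares are a description and not a test of the list. The count of called genes depended on single lungs, being 0 without WT replicate 1, 6 without WT replicate 3 and 1 without any other lung. The share of all tested genes called higher moved with it, to 0.132% without WT replicate 1 and 1.5% without WT replicate 3.

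**Figure D1:**
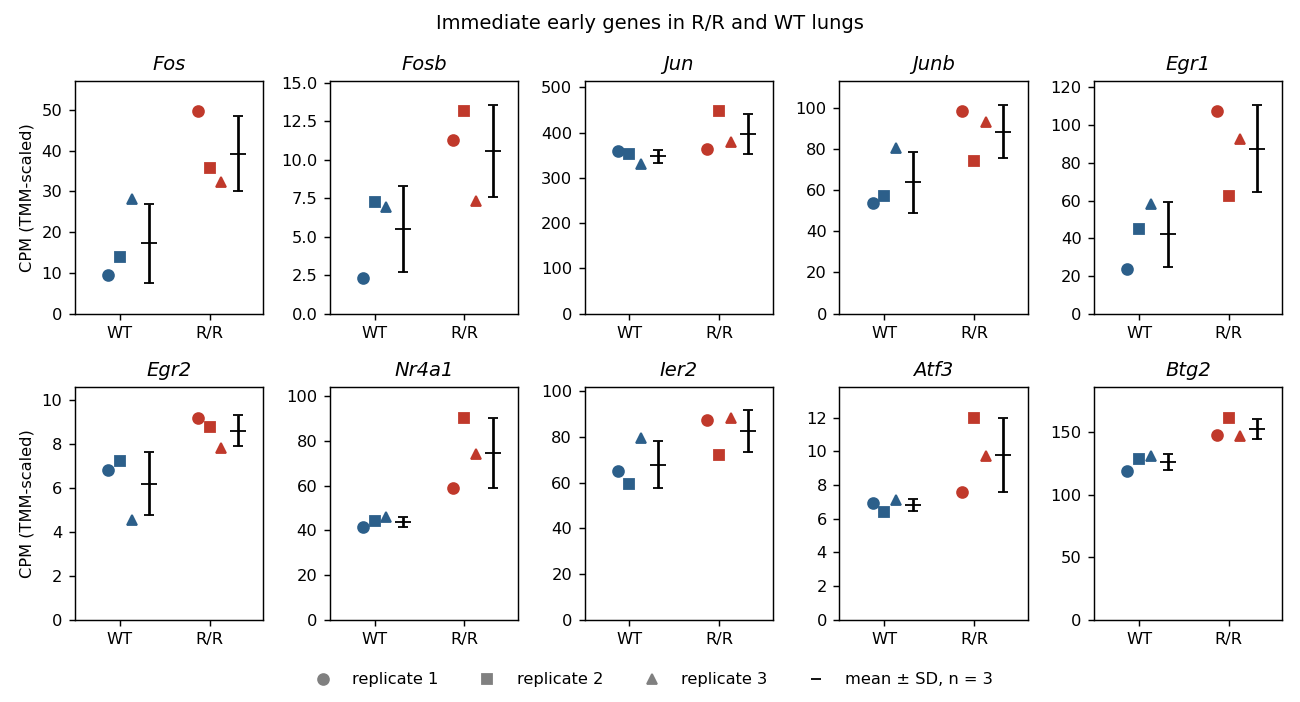
Each panel shows TMM-scaled CPM (vertical axis, from 0) of 1 gene in the 3 WT and 3 R/R lungs; symbols give the replicate and black bars the mean ± SD of 3 lungs. R/R lungs lay above WT lungs without overlap in 8 of the 10 genes, and overlapped them in Junb and Ier2.

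Nr4a1, which encodes an orphan nuclear receptor induced by T cell receptor and growth factor signals, was the gene that rose. Its gene (ENSMUSG00000023034.7) lies at chr15:101254269-101274795 on the plus strand. R/R replicates 1, 2 and 3 held 58.9, 90.5 and 74.2 CPM, and WT replicates 1, 2 and 3 held 41.4, 44.4 and 45.8 CPM. The WT lungs were close together, the R/R lungs were spread, and the lowest R/R lung was 1.29 times the highest WT lung. The mean rose from 43.9 ± 2.28 to 74.6 ± 15.8 CPM (SD, n = 3 each), a log2 fold change of 0.76 (SE 0.12, edgeR adjusted p = 0.0148). The gene ranked 61 by p among all tested genes. The exact permutation test gave p = 0.1, the smallest that 3 against 3 allows, as for every gene here whose genotypes do not overlap. Without WT replicate 1 the log2 fold change was 0.72 and the call was lost (edgeR adjusted p = 0.0669), with 5 lungs left in the fit. Without R/R replicate 3 the call held narrowly (edgeR adjusted p = 0.0499).

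Fos encodes the AP-1 subunit that cannot pair with itself and binds DNA as a dimer with Jun proteins. Its gene (ENSMUSG00000021250.13) is at chr12:85473890-85477273, plus strand. In R/R replicates 1 to 3 Fos was at 49.7, 35.8 and 32.4 CPM, against 9.60, 14.0 and 28.2 CPM in WT replicates 1 to 3. WT replicate 3 came near the R/R lungs, and the other WT lungs were far below, so that the WT values spanned 2.94-fold and the R/R values 1.53-fold. The means were 39.3 ± 9.15 and 17.3 ± 9.73 CPM (SD, n = 3), a log2 fold change of 1.19 (SE 0.29, edgeR adjusted p = 0.0683). This was the largest difference of the 10 genes, and it did not pass. Without WT replicate 3 the log2 fold change was 1.73 and passed (edgeR adjusted p = 5.99e-04), and with any other lung left out it did not.

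Fosb, a close relative of Fos, had the lowest level per length. It was at 11.3, 13.2 and 7.30 CPM over R/R replicates 1 to 3 and at 2.31, 7.29 and 6.91 CPM in WT replicates 1 to 3. The lowest R/R lung exceeded the highest WT lung by a factor of only 1.003, and WT replicate 1 stood well below the rest. The log2 fold change was 0.93 (SE 0.33, edgeR adjusted p = 0.208).

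Jun, the partner of Fos and the most abundant of the 10 per length, was at 364, 447 and 378 CPM in the R/R lungs and at 359, 353 and 330 CPM in the WT lungs, in replicate order. The genotypes touched, with only R/R replicate 2 standing apart, and the log2 fold change of 0.19 was the smallest of the 10 (SE 0.08, edgeR adjusted p = 0.298). Jun shares 232 of its 3189 exon bases with Junos, transcribed from the opposite strand, and strand was not used in counting. Reads of the pair cannot be told apart there. Junos held 182 to 230 counts a library, against 5645 or more for Jun.

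Junb, whose product pairs with Fos proteins and drives transcription less strongly than Jun, was at 98.3, 74.1 and 92.9 CPM in the R/R lungs and at 53.7, 57.1 and 80.5 CPM in the WT lungs. WT replicate 3 lay above R/R replicate 2, so the genotypes overlapped. Its log2 fold change was 0.47 (SE 0.14, edgeR adjusted p = 0.136), and without WT replicate 3 it was 0.67 and passed (edgeR adjusted p = 0.00580).

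Egr1, a zinc-finger factor that binds GC-rich sites, was at 107, 62.4 and 92.8 CPM over R/R replicates 1 to 3 and at 23.5, 44.7 and 58.0 CPM in WT replicates 1 to 3. The genotypes did not overlap, yet R/R replicate 2 and WT replicate 3 were only a factor of 1.08 apart. Means of 87.5 ± 22.9 and 42.1 ± 17.4 CPM (SD, n = 3) gave a log2 fold change of 1.06 (SE 0.26, edgeR adjusted p = 0.0673). As for Fos, it passed when WT replicate 3 was left out (1.35, edgeR adjusted p = 0.00986) and not when any other lung was.

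Egr2, a relative of Egr1 known for its roles in myelination and in T cell tolerance, was at 9.21, 8.79 and 7.83 CPM in the R/R lungs and at 6.80, 7.23 and 4.57 CPM in the WT lungs. Here WT replicate 3 was the lowest lung of all, where for Fos and Egr1 it was the highest WT lung. The log2 fold change was 0.47 (SE 0.18, edgeR adjusted p = 0.246).

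Btg2, a brake on proliferation that recruits deadenylases to messenger RNA and is a p53 target, had the lowest biological variation of the 10. It was at 148, 162 and 148 CPM in the R/R lungs and at 120, 129 and 131 CPM in the WT lungs, with little spread within either genotype. No WT lung reached an R/R lung. Means of 153 ± 8.11 and 126 ± 6.04 CPM (SD, n = 3) gave a log2 fold change of 0.27 (SE 0.06, edgeR adjusted p = 0.0537), just short of the threshold. It passed in 6 of 9 alternative settings that used all lungs, and without WT replicate 3 (edgeR adjusted p = 0.0389).

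Atf3, a CREB-family factor induced by many stresses, was at 7.60, 12.0 and 9.72 CPM in the R/R lungs and at 6.92, 6.40 and 7.14 CPM in the WT lungs. Like Nr4a1, it was even among WT lungs and spread among R/R lungs, with R/R replicate 2 highest and R/R replicate 1 near the WT lungs. Its log2 fold change was 0.52 (SE 0.17, edgeR adjusted p = 0.178). Ier2 was at 87.6, 72.2 and 88.5 CPM in the R/R lungs and at 64.9, 59.4 and 79.4 CPM in the WT lungs. The genotypes overlapped through R/R replicate 2 and WT replicate 3, as they did for Junb, and the log2 fold change was 0.29 (SE 0.11, edgeR adjusted p = 0.238). It passed without WT replicate 3, at 0.41 (edgeR adjusted p = 0.0305). Ier2 and Junb lie 314 kb apart on chromosome 8.

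**Figure D2:**
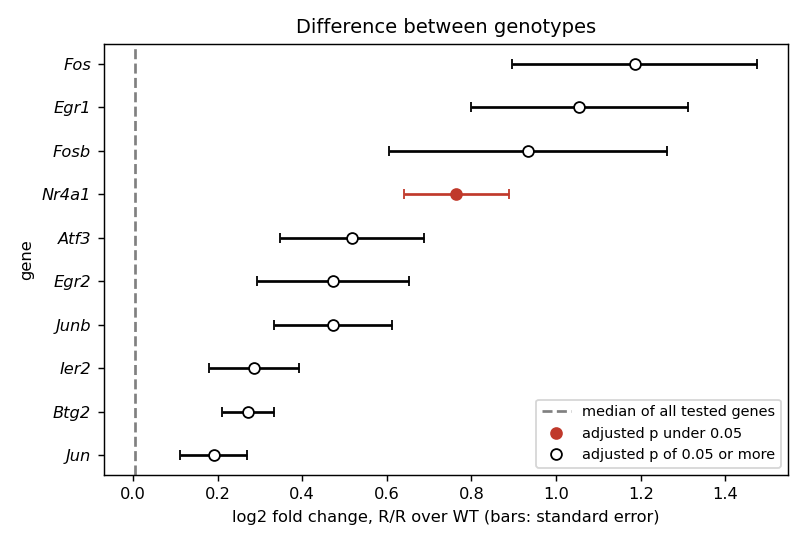
Log2 fold change of R/R over WT (horizontal axis) for each of the 10 genes, with standard errors as bars; the filled point passed an adjusted p of 0.05 and the dashed line is the median of all tested genes. All 10 points lie above 0, from 0.19 in Jun to 1.19 in Fos, and only Nr4a1 is filled.

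The lungs differed within a genotype in ways that many of the 10 genes shared. Of the 6 lungs, WT replicate 1 was the lowest for 6 genes, Fos, Fosb, Junb, Egr1, Nr4a1 and Btg2, and WT replicates 2 and 3 for 2 genes each. WT replicate 3 was the highest WT lung for 7 of the 10. The mean deviation of the 10 genes from their own means over all lungs was −0.60, −0.27 and −0.10 (log2) in WT replicates 1 to 3 and 0.36, 0.35 and 0.26 in R/R replicates 1 to 3.

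Among R/R lungs the genes divided by which lung was highest. R/R replicate 1 was the highest of all lungs for Fos, Junb, Egr1 and Egr2. R/R replicate 2 was the highest for Fosb, Jun, Nr4a1, Atf3 and Btg2, and R/R replicate 3 for Ier2 alone. Junb, Egr1 and Ier2 were at their lowest R/R value in replicate 2, the lung where Nr4a1, Atf3 and Jun were at their highest. The 10 genes together held 0.0939%, 0.0967% and 0.0941% of counts in R/R replicates 1 to 3 and 0.0686%, 0.0721% and 0.0770% in WT replicates 1 to 3.

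**Figure D3:**
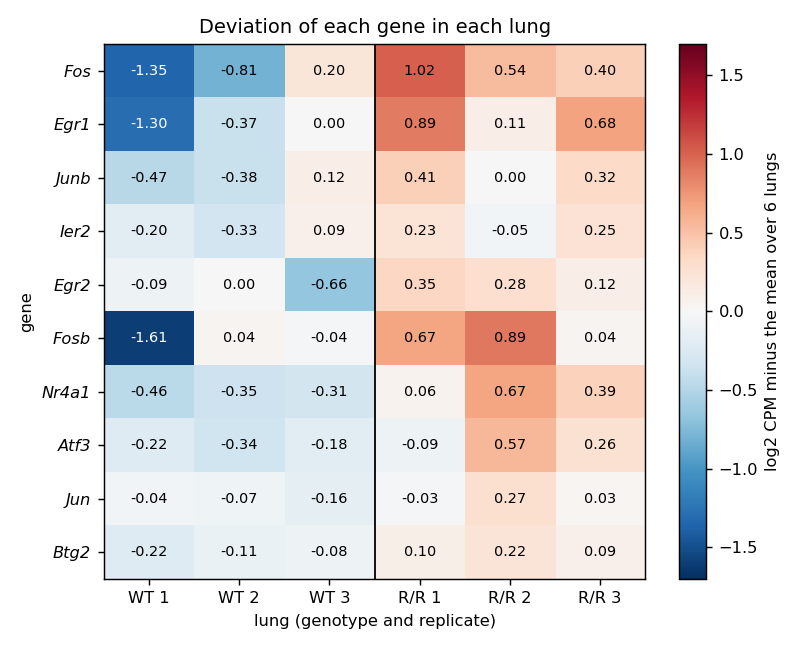
Colour and number in each cell give the log2 CPM of a gene (rows) in a lung (columns) minus its mean over the 6 lungs. WT replicate 1 is the lowest for 6 genes, and R/R replicate 1 (4 genes) and R/R replicate 2 (5 genes) are highest for different genes.

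The spread between lungs of a genotype was wide for several of these genes compared with genes of like level. The biological coefficient of variation of a gene, the part of its relative spread that counting error does not cover, was 27.9% for Fosb and 22.1% for Egr1, with Fos in between. They stood at percentiles 99.2 (Fosb), 99.8 (Egr1) and 99.7 (Fos) among tested genes within 0.5 log2 CPM of each. Junb at 12.2%, Nr4a1 at 10.7% and Ier2 at 9.38% were at percentiles 98.7, 97.8 and 95.6. Lower in this order were Jun at 7.32% (percentile 80.9), Atf3 at 13.6% (76.9) and Egr2 at 13.8% (73.2). Btg2 was at 5.97% and at percentile 50.1, the middle for its level. The value common to all genes was 8.62%. Fos and Egr1 had larger differences between genotypes than Nr4a1 and larger errors.

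Per kilobase of exon the order of the 10 genes was the same in R/R and WT lungs. Jun led with a mean level of 117 CPM per kb, followed by Btg2 at 50.8, Ier2 at 49.4 and Junb at 42.1 CPM per kb. Btg2 and Ier2, and Ier2 and Junb, overlapped over lungs in both genotypes. Nr4a1 at 16.9, Egr1 at 14.4 and Fos at 12.0 CPM per kb came next, with overlap between each neighbour and the next. Atf3 at 3.85, Egr2 at 2.18 and Fosb at 1.29 CPM per kb were lowest, each apart from its neighbours in both genotypes.

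**Figure D4:**
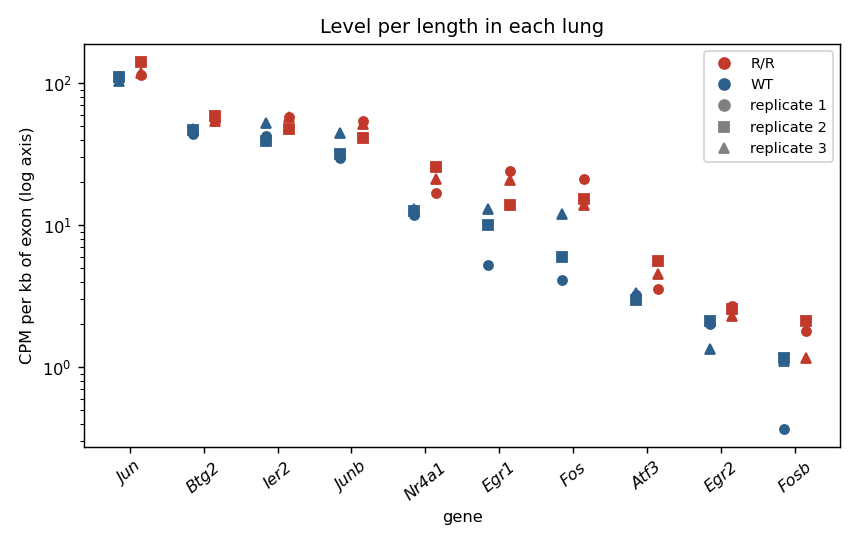
Level of each gene in CPM per kilobase of exon (logarithmic vertical axis), 1 point a lung, ordered by mean level; colour gives the genotype and symbol the replicate. Jun stands above the rest at a mean of 117 CPM per kb and Fosb is lowest at 1.29 CPM per kb.

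Relatives outside the 10 were mostly higher, and none passed, against 1.75% of all tested genes called in either direction. The list held 23 relatives of the 10 genes, such as other Fos, Jun, Egr, Nr4a, Ier and Btg genes. Nab1 and Nab2, which are partners of Egr proteins and not family members, were counted with them. Of the 23, 21 were tested, 17 were higher and 4 lower in R/R lungs, and none passed an adjusted p of 0.05 in edgeR. Over all tested genes 51.2% were higher. At an unadjusted p under 0.05, 7 were higher and 1 was lower, against 6.54% of all tested genes higher and 14.2% in either direction. DESeq2 and edgeR's exact test each called 2 relatives, Egr3 and Tob1, as higher. These tools called 1.16% and 1.41% of all tested genes higher. The median log2 fold change of the relatives was 0.14. Egr3, a relative of Egr1 and Egr2, had the highest log2 fold change, 0.80 (SE 0.21, edgeR adjusted p = 0.0923), from 6.44, 9.27 and 11.5 CPM in the R/R lungs against 5.59, 5.68 and 4.27 CPM in the WT lungs. The genotypes did not overlap for Egr3, and R/R replicate 3 was highest. Nr4a3, a relative of Nr4a1, had a log2 fold change of 0.75 with overlap (SE 0.33, edgeR adjusted p = 0.325). Tob1, of the Btg family, had 0.36 (SE 0.10, edgeR adjusted p = 0.0995). At the low end, the AP-1 family gene Batf was at −0.41 (edgeR adjusted p = 0.405), Ier5 at −0.28 (0.140) and Btg1 at −0.10 (0.539).

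Among 49 other genes known to respond rapidly to signals, 47 were tested. Against 0.648% of all tested genes, 3 of the 47 were called higher in R/R lungs. None was called lower by the quasi-likelihood test, while edgeR's exact test called Dusp2 lower (adjusted p = 0.0472) and the same quasi-likelihood test without a filter on low counts called Dusp4 lower (edgeR adjusted p = 0.0310). In all, 36 were higher and 11 lower, 13 and 2 of them at an unadjusted p under 0.05, and their median log2 fold change was 0.11. Of all tested genes, 6.54% were higher at that unadjusted p and 14.2% reached it in either direction. Ccn1, a secreted matrix protein induced by SRF and YAP, was at 189, 195 and 170 CPM in the R/R lungs and at 75.4, 90.1 and 108 CPM in the WT lungs. The lowest R/R lung was 1.58 times the highest WT lung, and it rose by 1.02 on the log2 scale (SE 0.11, edgeR adjusted p = 0.00193), a call that held with each lung left out in turn. Ptgs2, the inducible prostaglandin synthase, was at 14.4, 22.0 and 21.3 CPM against 7.77, 10.3 and 12.8 CPM and rose by 0.90 (SE 0.19, edgeR adjusted p = 0.0390). Areg, a ligand of the EGF receptor, was at 3.72, 10.7 and 8.07 CPM against 1.58, 2.26 and 3.22 CPM and rose by 1.66 (SE 0.36, edgeR adjusted p = 0.0434). The R/R replicate 1 value of Ptgs2 and of Areg lay close to the highest WT value. Neither gene passed without WT replicate 1, where the edgeR adjusted p was 0.142 for Ptgs2 and 0.170 for Areg, nor when WT replicate 2 or either of R/R replicates 2 and 3 was left out. Dusp2 and Dusp4, phosphatases that switch off MAP kinases and are themselves induced by them, had the lowest log2 fold changes among genes of this list with a mean log2 CPM of 1 or more, −0.64 and −0.32 (edgeR adjusted p = 0.129 and 0.133), and Gadd45g, a stress sensor gene, followed at −0.20.

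None of 33 upstream regulators, kinases, SRF, CREB factors and their partners, passed the test in edgeR or in any other setting. In edgeR 1.75% of all tested genes were called in either direction, so no call among 33 genes is near that share. Of the 33 regulators, 16 were higher and 17 lower in R/R lungs. Their log2 fold changes centred on −0.0045. An unadjusted p under 0.05 was reached by 2 that were higher and 4 that were lower, against 14.2% of all tested genes in either direction. Crem, a CREB-family gene, had the highest log2 fold change at 0.26, followed by Srf at 0.20 and Hras at 0.18. The lowest were the kinase gene Mapk7 at −0.21, the SRF partner gene Mrtfa at −0.17 and Nras at −0.16. The transcript level of a kinase or of SRF does not measure its activity.

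**Figure D5:**
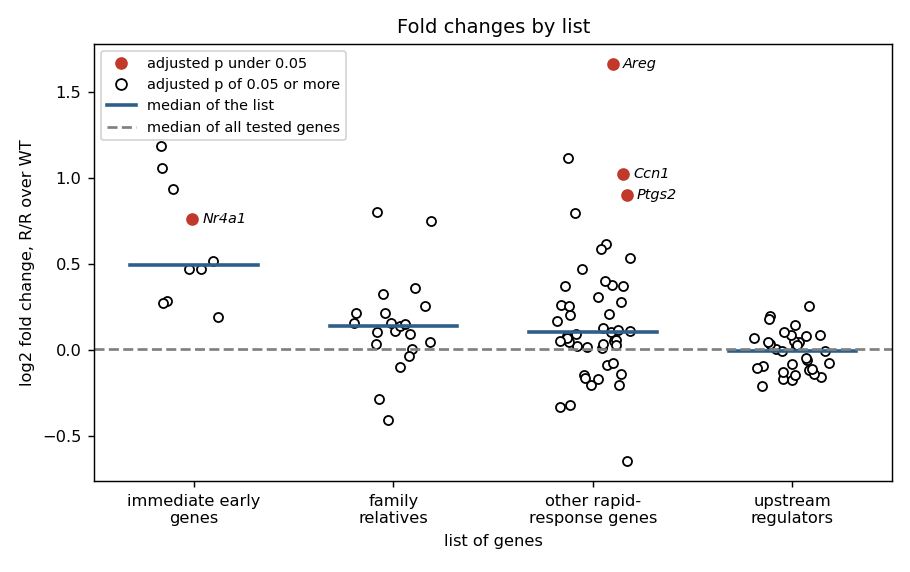
Log2 fold change of R/R over WT (vertical axis), 1 point a tested gene, for the 10 immediate early genes, their family relatives, other rapid-response genes and upstream regulators; blue lines are list medians and filled points passed an adjusted p of 0.05. The medians are 0.50, 0.14, 0.11 and −0.0045, and the filled genes are Nr4a1, Ccn1, Ptgs2 and Areg.

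The genes whose profile over the 6 lungs was nearest to the mean profile of the 10, of 14190 tested genes averaging 1 or more in log2 CPM, were Tnfsf13b, Gdnf, Zfp300, Bche and Podn. Their root mean square differences from it were 0.0579, 0.0857, 0.0884, 0.0903 and 0.104 (log2), and those of the 10 genes themselves were 0.186 in Junb to 0.509 in Fosb. Tnfsf13b, which encodes the B cell survival factor BAFF, was at 33.7, 32.3 and 34.1 CPM in the R/R lungs and at 18.6, 22.0 and 25.1 CPM in the WT lungs. It showed the step between genotypes and the order of the WT lungs of the mean profile (log2 fold change 0.61, SE 0.10). Podn, a matrix proteoglycan gene, had a log2 fold change of 0.78 (SE 0.08). The nearest genes were chosen by a profile that holds the step between genotypes, so their own differences follow from the choice. With 6 lungs, likeness of profile is a description only.

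Other measures moved with the genotypes or with the same lungs. The summed level of 8 blood and platelet genes was 1196 to 2253 CPM in the R/R lungs and 2448 to 3248 CPM in the WT lungs, without overlap, with 2 genes higher and 6 lower. That of 9 fibroblast and smooth muscle genes was 3099 to 3453 against 3550 to 4221 CPM, also without overlap, with 1 higher and 8 lower. For 12 epithelial genes the sums were 36630 to 39775 in R/R and 29134 to 36992 CPM in WT lungs, overlapping, with 11 higher and 1 lower. WT replicate 1 had the lowest epithelial sum and WT replicate 3 the highest of the WT lungs. Fos, Egr1, Nr4a1, Junb and Btg2 had that order in these lungs, and Fosb, Jun, Egr2, Ier2 and Atf3 did not. The fibroblast and smooth muscle sum, the leukocyte sum and the mitochondrial share also had it. For 14 leukocyte genes the sums were 5535 to 5860 against 4201 to 5578 CPM, most of it from Lyz2 at 5029 to 5292 against 3517 to 4898 CPM. Lyz2 increased from WT replicate 1 to 3 like the epithelial sum, and the cells it came from were not measured. The other 13 summed to 503 to 567 CPM in R/R and 531 to 685 CPM in WT lungs, overlapping. Of the 14 genes, 11 were lower in R/R lungs, and the B cell genes Ms4a1 and Cd79a were called lower (log2 fold changes −0.99 and −0.67, edgeR adjusted p = 0.00675 and 0.0491). The share of all tested genes called in either direction was 1.75%. Among the epithelial genes Aqp5 was called higher (log2 fold change 0.27, edgeR adjusted p = 0.0459). Among the blood and platelet genes Hba-a1 was called lower (−0.78, edgeR adjusted p = 0.0478). No gene of the endothelial, fibroblast and smooth muscle, or heart and skeletal muscle lists was called. For 8 endothelial genes the sums overlapped, at 6369 to 6500 and 6323 to 7152 CPM. Heart and skeletal muscle genes summed to 24.8 to 74.5 CPM in R/R lungs and to 114, 190 and 24.9 CPM in WT replicates 1 to 3, and of these 11 genes only the skeletal muscle gene Myh4 was at 0 in every lung. The heart gene Myh6 was highest in the pair of WT lungs where the 10 genes were lowest on average, at 56.3 and 98.3 CPM. Thymus, fat and esophagus genes summed to no more than 19.8 CPM in any lung. Mitochondrial genes took 1.38% to 1.45% of counts in R/R and 1.30% to 1.34% in WT lungs. The part of these measures in the differences of the 10 genes was not tested, and the labels give no order or time of dissection.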

How the data were processed

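RNA was taken from the lungs of 3 R/R and 3 WT mice. The authors aligned read pairs to mm10 (GRCm38) with HISAT2 2.1.0, per the labels, and deposited raw counts per gene from featureCounts 2.0.1 on GENCODE M25, per the file headers, without normalization, strand or multi-mapping reads. The submitters' processing notes also name DESeq2. Symbols came from GENCODE M21. Counts were filtered with filterByExpr (minimum count 10, minimum total 15), scaled by TMM and compared with the quasi-likelihood test of edgeR 4.0.16 in R 4.3.3, without covariates, with Benjamini-Hochberg adjustment over all 17120 genes and a threshold of 0.05. Single genes were also compared by two-sided exact permutation of log2 CPM (prior count 0.5). The text names the 10 genes, every called gene of the related lists, the 3 highest and 3 lowest of each list (mean log2 CPM of 1 or more) and the 5 nearest profiles. Other genes were named after their values were seen. The members and lists were chosen with earlier results of these data known. Alternatives were limma-voom (limma 3.58.1), DESeq2 1.42.0, the exact test of edgeR, other scalings and filters, the replicate number as a block and each lung left out. Replicates of a genotype differed by more than sampling noise in every pair (chi-square per degree of freedom 5.65 to 9.03). The fit was tested on simulated data. Promoter sequence came from RefSeq, build GRCm38.p6.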

Additional observations from a re-analysis of the deposited data

How the results depend on the processing

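All 10 genes were higher in R/R lungs under all 15 alternatives, 9 settings with all lungs and 6 with a lung left out. Nr4a1 was called in 9 of 9 and in 5 of 6. The genes called numbered, of the 10 immediate early genes, 2 with DESeq2, 5 with edgeR's exact test (Fos, Junb, Egr1, Nr4a1 and Btg2), 2 each with limma-voom, library size only and upper-quartile factors, and 8 with no filter on low counts, where the prior degrees of freedom of the fit became infinite. Among all tested genes, DESeq2 called 541, edgeR's exact test 630 and the fit without a filter 1109 of 31428 tested, against 300 of 17120. The share of tested genes called higher was 1.16%, 1.41% and 1.45% in these settings and 0.526% with limma-voom, against 0.648%. Among family relatives DESeq2, the exact test and the fit without a filter called 2, 2 and 5, against 0, and among other rapid-response genes 5, 9 and 16, against 3, with 1 for limma-voom. All of these were higher in R/R lungs except Dusp2 in the exact test and Ier5 and Dusp4 without a filter. With each lung left out in turn, 65 to 621 of all tested genes were called, 0 to 6 of the 10, 0 to 1 relatives and 1 to 7 other rapid-response genes. The median log2 fold change then ran from 0.52 to 0.61 for the 10 genes and from −0.051 to 0.017 for upstream regulators. Fewer lungs enter these fits, and otherwise the cause was not tested. Over all tested genes, lungs with the same number did not deviate together (correlations −0.014, −0.0036 and −0.015). Whether they shared a litter or a dissection was not tested. With the replicate block 446 of all tested genes, 5 of the 10, 1 relative and 7 other rapid-response genes were called. Depth limits Fosb and Egr2 most, at 38 and 78 counts in their lowest library.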

Other observations

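Heat shock genes, which respond to protein damage and handling, were mixed. Of 12 tested, 9 were higher and 3 lower, and their log2 fold changes had a median of 0.07. Against 1.75% of all tested genes called in either direction, 1 heat shock gene was called. That gene, Hspa1b, an inducible chaperone, was at 11.2, 15.4 and 13.7 CPM in the R/R lungs and at 6.68, 6.13 and 7.38 CPM in WT lungs (log2 fold change 0.996, SE 0.15, edgeR adjusted p = 0.0102). Its near-identical copy Hspa1a had 0.67 (SE 0.21, edgeR adjusted p = 0.148), and as reads that map to both are not counted, the values of the pair are uncertain. The summed level of the 12 genes overlapped between genotypes, at 1202 to 1669 CPM in R/R and 1271 to 1542 CPM in WT lungs.

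Of 11 glucocorticoid-induced genes, 10 were tested, 5 were higher and 5 lower, and none was called by edgeR, the only tool whose calls were counted for these genes. At an unadjusted p under 0.05, 2 were higher and 1 was lower, against 14.2% of all tested genes in either direction. Per1, also a clock gene, was at 48.7, 149 and 115 CPM in the R/R lungs and at 81.4, 51.8 and 37.6 CPM in WT lungs, with overlap (log2 fold change 0.87, SE 0.34, edgeR adjusted p = 0.257). Tsc22d3 was at 114, 251 and 135 CPM in the R/R lungs and at 143, 127 and 125 CPM in WT lungs, also with overlap (log2 fold change 0.34, SE 0.22, edgeR adjusted p = 0.535). In both genes R/R replicate 2 was the highest lung, as it was for Nr4a1, Atf3 and Jun, and R/R replicate 1 the lowest R/R lung. Sgk1 and Mt1 had the same highest and lowest lung among R/R lungs. The rest of the list did not, as Fkbp5, Zbtb16, Pdk4, Cdkn1a, Sult1a1 and Lcn2 were highest among R/R lungs in replicate 1.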
